A study of Mus musculus with 18 samples.

Results

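The enrichment of transcripts on endothelial ribosomes was compared between retina and brain. The quantity described is, gene by gene, the log2 ratio of the Positive fraction to the Input fraction in retina minus the same ratio in brain, and it is called the retina minus brain difference here. It was measured for the 12438 genes listed in both the retina and the brain table, of 14411 genes listed for any of the 3 tissues of the series, and it used 12 of the 18 libraries. Of these genes 7270 were also listed for choroid and 5168 were not. All libraries came from tamoxifen-treated mice of the genotype Cdh5(PAC)-cre/ERT2+; NuTRAP+, so every group carried both transgenes and no mouse without them was part of the comparison. The 4 groups were Retina Positive, Retina Input, Brain Positive and Brain Input, with 3 libraries each. The labels call them biological replicates and give neither the number of animals per sample nor age, so the p-values cover the scatter among these libraries, part of which may be technical.

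Cdh5(PAC)-cre/ERT2 is a recombinase that tamoxifen activates, driven by the regulatory sequence of vascular endothelial cadherin and thus active in endothelial cells. NuTRAP is a reporter that, once recombined, places GFP on the ribosomal protein L10a. An antibody against GFP then pulls down the tagged ribosomes with the RNA they carry, which is the Positive fraction in translating ribosome affinity purification (TRAP). The Input is a portion of the same cleared homogenate kept before the antibody was added, so it represents the RNA of all cell types that remained after clearing. Endothelial cells of retina and brain form the blood-retina and blood-brain barriers, in which tight junctions close the gaps between cells, transcytosis is held low and dedicated carriers move glucose, amino acids and lipids. A retina minus brain difference above 0 means that a transcript was more enriched over Input in retina than in brain. By construction it equals the retina over brain log2 ratio in Positive minus that in Input, so a transcript with equal levels in both Positive fractions still has a difference if the surrounding tissues differ. In bulk samples, fewer cells of a type and less RNA per cell cannot be told apart.

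Listed genes summed to between 12325658 and 26069649 estimated counts in Retina Positive, 20915469 and 36157140 in Retina Input, 31111437 and 40112343 in Brain Positive, and 28128866 and 43219831 in Brain Input. Retina Positive replicate 3 stood apart. Its share of listed counts on 30 pan-endothelial genes was 1.14%, against 0.548% and 0.565% in the other Retina Positive libraries, 0.0336% to 0.0397% in Retina Input, 1.03% to 1.07% in Brain Positive and 0.0489% to 0.0548% in Brain Input. Without it 6907 genes passed the test of the difference, against 6072 with it. Its part in the results was not tested beyond leaving it out, and values without it are given where they change a statement. The 25 photoreceptor genes listed for retina took 4.46% to 7.42% of listed counts in Retina Positive, against 5.79% to 6.93% in Retina Input.

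Cdh5, which encodes vascular endothelial cadherin and whose promoter drives the recombinase (Entrez 12562, mm10 chromosome 8, 104101625 to 104144502, plus strand), had 201, 234 and 469.9 CPM in Retina Positive, against 2.87, 2.27 and 4.04 CPM in Retina Input. CPM is the TMM-scaled count relative to library total. In brain it had 357, 389 and 355 CPM in Positive and 10.2, 10.5 and 11.6 CPM in Input. Positive lay far above Input in each tissue, by 6.65 on the log2 scale in retina and 5.09 in brain. The difference was 1.56 ± 0.40 (SE), or 2.96-fold, and the quasi-likelihood test of edgeR gave an adjusted p = 0.006737. The Positive fractions overlapped, and the Input fractions did not. All 30 tested pan-endothelial genes were higher in Positive than in Input in retina and in brain, at medians of 6.08 and 5.08 on the log2 scale.

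Rpl10a, the gene of the tagged ribosomal protein (Entrez 19896, chromosome 17, 28328471 to 28331033, plus strand), had 276, 289 and 362 CPM in Retina Positive, against 196, 174 and 205 CPM in Retina Input. Brain Positive held 518, 562 and 516 CPM, against 124, 118 and 118 CPM in Brain Input. It was higher in Positive in both tissues, less so in retina, with a difference of -1.46 ± 0.14 (adjusted p = 8.438e-06 by edgeR). Reads from the reporter's L10a and from the mouse gene cannot be told apart in these counts.

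**Figure D1:**
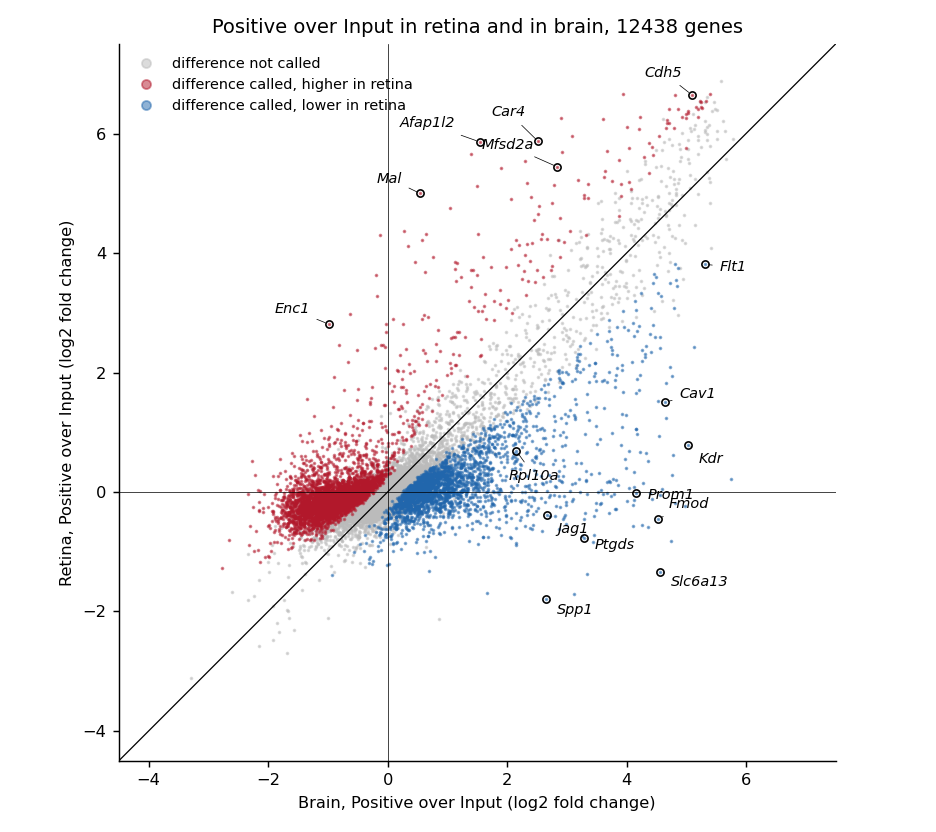
Log2 Positive over Input in retina (vertical axis) and in brain (horizontal axis) for 12438 genes, from the fit over 12 libraries. Red and blue points passed the test of the difference as higher (3590) or lower (2482) in retina, grey points did not, the diagonal marks equal enrichment, and circled genes are named in the text.

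The retina minus brain difference passed an adjusted p of 0.05 by edgeR in 6072 genes, 48.8% of those tested. It was higher in 3590 (28.9%) and lower in 2482 (20%). With the authors' per-library factors 2953 were higher and 2970 lower, and the median over all genes was -0.0074, so the excess of higher genes depended on the scaling. The median over all genes was 0.09 with quartiles at -0.32 and 0.55, and the median SE of a gene was 0.16. Differences of at least 2-fold were found in 1202 genes that were higher and 866 that were lower. In 5939 of the 6072 genes the 3 same-numbered Positive minus Input values of retina lay entirely on one side of those of brain, which was so for 59.1% of all genes. Genes listed for choroid as well passed in 49.9% of cases and genes not listed there in 47.3%.

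Positive differed from Input in 35.2% of genes in retina and in 73.8% in brain. The fit estimated a single spread per gene over all 12 libraries. Its SE (medians of 0.12 and 0.12) therefore do not measure the scatter within each tissue. That scatter could differ, as the pan-endothelial share had an SD of 0.338 in Retina Positive and 0.0194 in Brain Positive. In 2296 genes, 37.8% of those called, Positive was below Input in brain while retina did not pass, and in 1462 (24.1%) Positive was above Input in brain while retina did not pass. Another 731 genes fell in both tissues, less in retina, and 659 rose in both tissues, less in retina. A further 186 rose in both tissues and more in retina, and 178 rose in retina while brain did not pass. Opposite calls were made in 350 genes, of which 164 rose in Retina Positive and fell in Brain Positive and 186 did the reverse.

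Between the tissues, retina and brain differed in 75.5% of genes when the Positive fractions were compared and in 75.6% when the Input fractions were compared, across tables that the authors had filtered separately. Among the 6072 genes, the Input ratio was larger in size than the Positive ratio in 3411 (56.2%), against 53.8% of all genes. In 1222 genes the Inputs differed and the Positives did not pass, and in 1161 the Positives differed and the Inputs did not pass. Both differed in 3651.

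**Figure D2:**
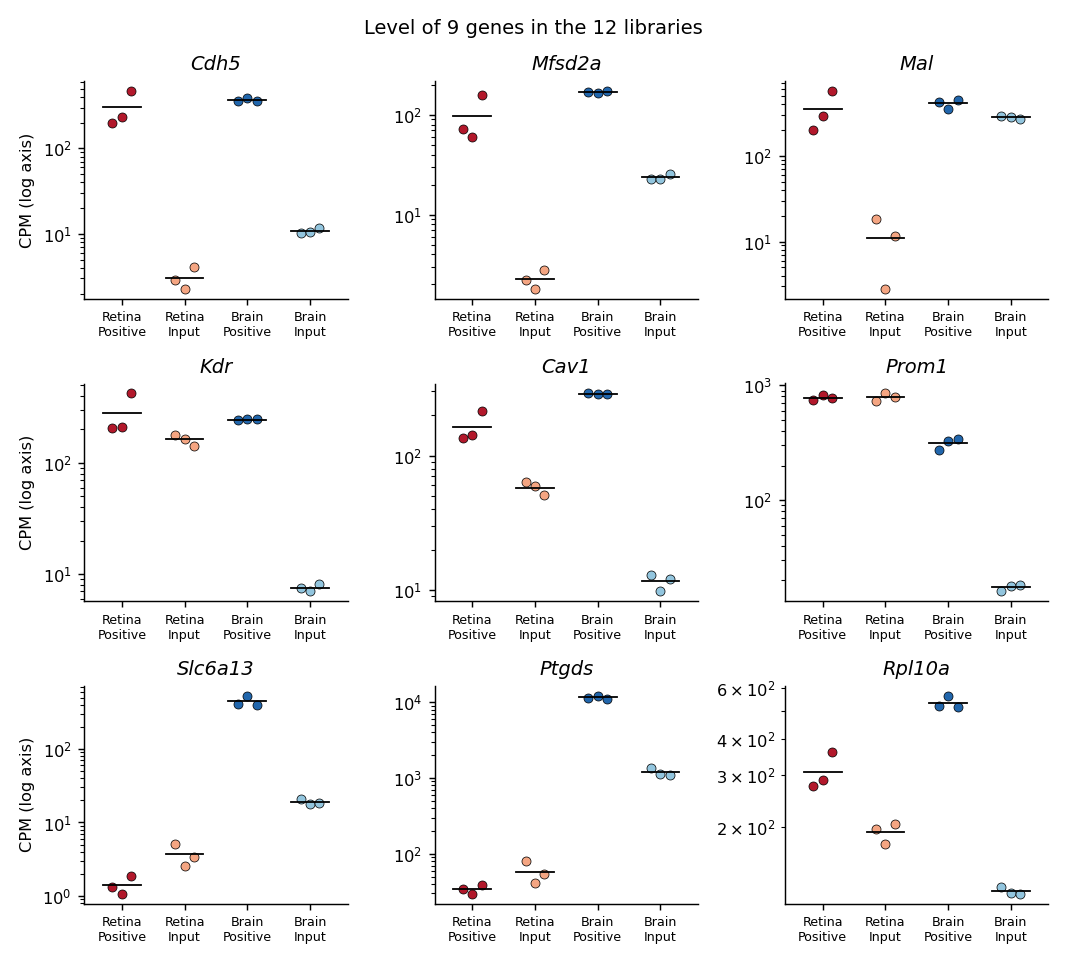
Level in CPM (log axis) of 9 genes in each of the 12 libraries, with horizontal bars at the mean of 3. Cdh5 and Mfsd2a differ between the tissues mostly in Input, Kdr and Prom1 have high Retina Input, and Slc6a13 and Ptgds are highest in Brain Positive.

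Core endothelial genes that passed the test were mostly more enriched in retina. Of the 30 pan-endothelial genes 16 were higher, 3 lower and 11 not called, 63.3% called against 48.8% of all genes. The median difference was 1.21, and the median retina over brain log2 ratio was -0.62 in Positive and -1.69 in Input. Leaving out Retina Positive replicate 3 gave 17 higher, 4 lower and a median of 0.75, and the replicate block gave 20 higher and 4 lower. Over the 16 of these genes with at least 50 in all 12 libraries, 11 were higher and 3 lower with a median of 1.14. Besides Cdh5, the claudin gene Cldn5, a main component of barrier tight junctions, was higher (1.21 ± 0.31, adjusted p = 0.006565), as was the sialomucin gene Cd34 (2.65 ± 0.39, adjusted p = 0.0001604). Cd34 had 200.0, 244 and 483 CPM in Retina Positive and 3.81, 3.42 and 5.12 CPM in Retina Input, against 499, 528 and 516 CPM in Brain Positive and 37.5, 47.2 and 42.1 CPM in Brain Input. Its Retina Input lay far below its Brain Input, and its Positive fractions did not overlap either. Pecam1, an endothelial adhesion gene, did not pass (0.74 ± 0.37, adjusted p = 0.1118, but 0.0234 with the replicate number as a block and 0.02 without Retina Positive replicate 1).

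The exceptions were led by Kdr, the main receptor for vascular endothelial growth factor (VEGF; Entrez 16542, chromosome 5, 75933270 to 75978428, minus strand). Kdr had 208, 211 and 422 CPM in Retina Positive and 178, 166 and 143 CPM in Retina Input, against 242, 246 and 247 CPM in Brain Positive and 7.46, 7.01 and 8.08 CPM in Brain Input. The Positive fractions overlapped (retina over brain 0.20 ± 0.21), while Retina Input was 21.6-fold above Brain Input. The difference was -4.24 ± 0.32, 18.9-fold, with adjusted p = 1.541e-06 by edgeR. Flt1, another VEGF receptor of the list, behaved alike on a smaller scale (-1.50 ± 0.37, adjusted p = 0.00517), with 61.3, 52.4 and 48.5 CPM in Retina Input and 17.3, 15.7 and 20.9 CPM in Brain Input. The VEGF receptor gene Flt4 was lower too (-1.39 ± 0.46, adjusted p = 0.02446 by edgeR). Its retina over brain log2 ratio was 0.06 in Positive and 1.45 in Input.

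Angpt2, an angiopoietin that antagonises the Tie2 receptor, differed in the Positive fraction instead. It had 5.68, 5.34 and 10.1 CPM in Retina Positive and 2.93, 2.84 and 3.40 CPM in Retina Input, against 43.6, 59.9 and 61.9 CPM in Brain Positive and 2.02, 1.91 and 2.55 CPM in Brain Input. The difference was -3.43 ± 0.34 (adjusted p = 1.048e-05). The Tie2 gene Tek (1.29) and the phosphatase gene Ptprb (1.50) were higher. Of 12 tested genes of VEGF and angiopoietin signalling 4 were higher and 4 lower, 66.7% called against 48.8% of all genes. Their median of 0.04 turned negative under several alternatives, among them DESeq2 size factors (-0.009), the authors' factors (-0.052) and a minimum of 50 in all 12 libraries (-0.287).

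Of 30 barrier transporter genes 6 were higher and 7 lower, 43.3% called against 48.8% of all genes, with a median of 0.19, which became -0.12 without Retina Positive replicate 3 and -0.004 over genes with at least 50 in all 12 libraries. The higher count was 10 without Retina Input replicate 1. Mfsd2a, a carrier of lysophospholipids that restrains transcytosis (chromosome 4, 122946851 to 122961188, minus strand), had 72.2, 59.9 and 159 CPM in Retina Positive and 2.21, 1.80 and 2.81 CPM in Retina Input. In brain it had 171, 165 and 174 CPM in Positive and 22.6, 23 and 25.7 CPM in Input. Its difference was 2.61 ± 0.43 (adjusted p = 0.0003966), with Retina Positive below Brain Positive and Retina Input lower still.

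Slc2a1, the glucose carrier GLUT1, went the other way, at -1.34 ± 0.35 (adjusted p = 0.007635). Its levels in the Positive fractions overlapped, at 1146, 1318 and 2759.5 CPM in retina and 1739, 1858 and 2074 CPM in brain, while Retina Input held 227, 196 and 197 CPM against 91.6, 80.6 and 93.7 CPM in Brain Input. The most negative difference of the list was in the taurine carrier gene Slc6a6, at -2.58 ± 0.15 (adjusted p = 2.854e-07). Slc6a6 was not called in retina, where it had 1913, 2334 and 2303 CPM in Positive and 1622, 2070.2 and 1764 CPM in Input. In brain it had 1089, 972 and 901 CPM in Positive and 132, 141 and 139 CPM in Input. The efflux pump gene Abcb1a (1.31) was higher in the difference, and the monocarboxylate carrier gene Slc16a1 (-1.46) was lower.

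Genes of caveolae and transcytosis had differences of either sign. Cav1, the structural protein of caveolae (chromosome 6, 17306335 to 17341328, plus strand), had 136, 143 and 214 CPM in Retina Positive and 63.3, 59.0 and 51.2 CPM in Retina Input. Brain held 290.3, 288 and 289 CPM in Positive and 12.9, 9.78 and 12.1 CPM in Input. All Retina Positive values lay below all Brain Positive values and all Retina Input values above all Brain Input values, and the difference was -3.14 ± 0.23 (adjusted p = 1.162e-06). Its partner Cav2 followed (-1.58 ± 0.19), whereas Stab1, a scavenger receptor gene, was higher (2.72 ± 0.35, adjusted p = 6.784e-05). Over the 12 caveolar and transcytosis genes 6 were higher and 3 lower, 75% called against 48.8% of all genes. The median of 0.61 became -0.16 over genes at or above the median level and -0.20 over genes with at least 50 in all 12 libraries.

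Of 22 tight and adherens junction genes 3 were higher and 8 lower, 50% called against 48.8% of all genes. The median of -0.31 stayed negative under every alternative run. The lower ones included Jam2, an adhesion molecule of junctions (-1.65 ± 0.24), the polarity gene Pard6g (-2.57 ± 0.24) and the scaffold gene Tjp1 (-0.86). In the leukocyte adhesion list, the sialomucin gene Podxl was lower (-2.81 ± 0.29, adjusted p = 1.279e-05). Podxl had 599, 614 and 1151 CPM in Retina Positive and 210.1, 217 and 186 CPM in Retina Input, against 752, 672 and 620.5 CPM in Brain Positive and 25, 25 and 25.7 CPM in Brain Input. Cd34 and Podxl, both sialomucins, thus lay on opposite sides, and their Positive levels differed little next to their Input levels.

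The Wnt pathway that maintains barrier properties of central nervous system vessels had 5 of 21 genes higher and 8 lower at a median of -0.17, and 7 higher and 8 lower with the replicate block. Of its genes 61.9% were called, against 48.8% of all genes. The higher count was 3 when any of Retina Input replicate 2, Brain Positive replicate 2 or 3 or a Brain Input library was left out, and with the authors' factors, and it was 1 in a fit of all 18 libraries and over genes with at least 50 in all 12. Fzd4, the receptor for norrin and Wnt7 ligands, had 44.9, 51.4 and 123 CPM in Retina Positive and 18.7, 18.8 and 14.6 CPM in Retina Input. Brain had 45.6, 54.5 and 56.7 CPM in Positive and 4.05, 3.64 and 3.36 CPM in Input, and the difference was -1.76 ± 0.44 (adjusted p = 0.005483). Lef1, a transcription factor that acts with beta-catenin, was higher (2.03 ± 0.39, adjusted p = 0.0009862), with 0.994, 1.01 and 2.07 CPM in Retina Input against 9.83, 8.97 and 6.75 CPM in Brain Input. Lef1 was under 50 counts in Retina Input and was listed for retina through Retina Positive alone. Nkd1, a feedback inhibitor of the pathway, was lower (-1.91 ± 0.31, adjusted p = 0.0003611). Tspan12, a co-receptor of Fzd4, did not pass (0.06 ± 0.29).

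Of 33 endothelial transcription factor genes 13 were higher, 4 lower and 16 not called, 51.5% called against 48.8% of all genes, with a median of 0.84. Without Retina Positive replicate 3 the lower count was 7, and the replicate block gave 17 higher and 5 lower. Over the 15 of these genes with at least 50 in all 12 libraries, 4 were higher and 4 lower with a median of 0.043. The haematopoietic and endothelial factor genes Tal1 (2.84) and Lyl1 (2.85 ± 0.49) had the largest positive differences. Lyl1 was barely detected in Retina Input, at 0.276, 0.252 and 0.0492 CPM, and its fitted difference depends on those few counts. Lyl1 was listed for retina through Retina Positive alone. Erg, an ETS factor gene, passed at 1.27 ± 0.47 (adjusted p = 0.03887) but not with the authors' factors or without any of 5 single libraries, where adjusted p was 0.0533 to 0.123. Tbx3, a T-box factor gene, had the most negative value of the list, -3.68 ± 0.32 (adjusted p = 4.665e-06), with 20.1, 26.5 and 28.9 CPM in Retina Positive and 17.6, 16 and 14.2 CPM in Retina Input. In brain Tbx3 had 39.2, 28.8 and 31.1 CPM in Positive and 1.6, 1.03 and 2.27 CPM in Input. Tbx3 did not reach 50 counts in every Brain Input library, so it was listed for brain through Brain Positive alone.

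Arterial genes gave 4 of 19 higher and 1 lower, 26.3% called against 48.8% of all genes, with a median of 0.67. The replicate block gave 7 higher and 2 lower, and leaving out Retina Positive replicate 1 gave 7 and 1. Without Retina Positive replicate 3 there were 6 higher and 3 lower with a median of 0.363. The most specific arterial genes did not pass, with Gkn3 at 0.94 ± 0.62 (adjusted p = 0.2248, but 0.0106 without Retina Input replicate 1) and Bmx, a tyrosine kinase gene, at 0.40 ± 0.70. The guidance receptor gene Unc5b was higher (1.62 ± 0.28). In the venous list 3 of 12 were higher and 3 lower, 50% called, with a median of 0.21 that was -0.08 without Retina Positive replicate 3. Vwf, the blood-clotting factor that carries factor VIII, had 281, 324 and 509 CPM in Retina Positive and 4.92, 3.81 and 4.33 CPM in Retina Input, against 306, 357 and 288 CPM in Brain Positive and 13.2, 11.6 and 11.8 CPM in Brain Input. Its difference was 1.70 ± 0.28 (adjusted p = 0.0003342), with the Positive fractions overlapping. Nr2f2, which specifies venous identity, was lower (-0.93 ± 0.16).

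Pdgfb, the ligand that recruits pericytes, was higher among tip cell genes (2.87 ± 0.46, adjusted p = 0.0002983), in which 7 of 14 were higher and 3 lower, and 5 lower without Retina Positive replicate 3. Of the tip cell list 71.4% were called, against 48.8% of all genes. Plvap, the diaphragm protein of fenestrae, did not pass (-0.24 ± 0.25). Of 8 genes of fenestrated endothelium 2 were higher, 25% called against 48.8% of all genes. Of these 2, Igfbp3 (1.80 ± 0.39, adjusted p = 0.002412), an IGF-binding protein, passed under every alternative run and Vwa1 did not. Without Brain Input replicate 1 Plvap was lower (adjusted p = 0.0485). Among basement membrane genes 3 of 24 were higher and 6 lower, 37.5% called, with a median of -0.11. Without Retina Positive replicate 3 they were 5 and 12, without Retina Positive replicate 1 they were 7 and 5 with a median of 0.088, and with the replicate block 5 and 7. Itgb4, an integrin subunit that binds laminin, was 12.8-fold higher (3.68 ± 0.25), and the laminin gene Lama1 was lower (-2.98 ± 0.30, adjusted p = 1.063e-05). The retina over brain log2 ratio of Itgb4 was -0.88 in Positive and -4.56 in Input, and that of Lama1 was -1.85 and 1.13. The collagen IV genes Col4a1 and Col4a2 did not pass (-0.58 ± 0.44 and -0.13 ± 0.41), but Col4a1 passed without Retina Positive replicate 3 (adjusted p = 0.000908).

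Genes of antigen presentation and of the interferon response that passed were lower. Of 15 genes of MHC class I presentation 5 were lower and 0 higher (median -0.88), and of 28 interferon-stimulated genes 8 were lower and 0 higher (median -0.58). The called shares were 33.3% and 28.6%. Among all genes 48.8% were called and 20% were lower. Tapbp, the tapasin gene, was lower at -1.62 ± 0.20 (adjusted p = 5.173e-05), and the interferon regulator gene Irf7 at -1.88 ± 0.35 (adjusted p = 0.0008459). The retina over brain log2 ratio of Tapbp was -0.47 in Positive and 1.15 in Input, and that of Irf7 was 0.09 and 1.98. B2m, the shared light chain of class I molecules, did not pass (0.27 ± 0.41). These counts turned on single libraries. Without Retina Positive replicate 3 they were 12 and 15, and without Retina Positive replicate 1 they were 4 and 5, with 1 gene of each list higher. Without Retina Input replicate 1 the interferon list had 5 lower, 1 higher and a median of -0.18, and by DESeq2 it had 8 lower and 1 higher. It had 5 lower without Retina Input replicate 3 or Brain Input replicate 3. The class I count was 10 with the replicate block, 9 without Brain Input replicate 1 and 8 by DESeq2. Single values of H2 genes, near-identical copies, are uncertain.

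**Figure D3:**
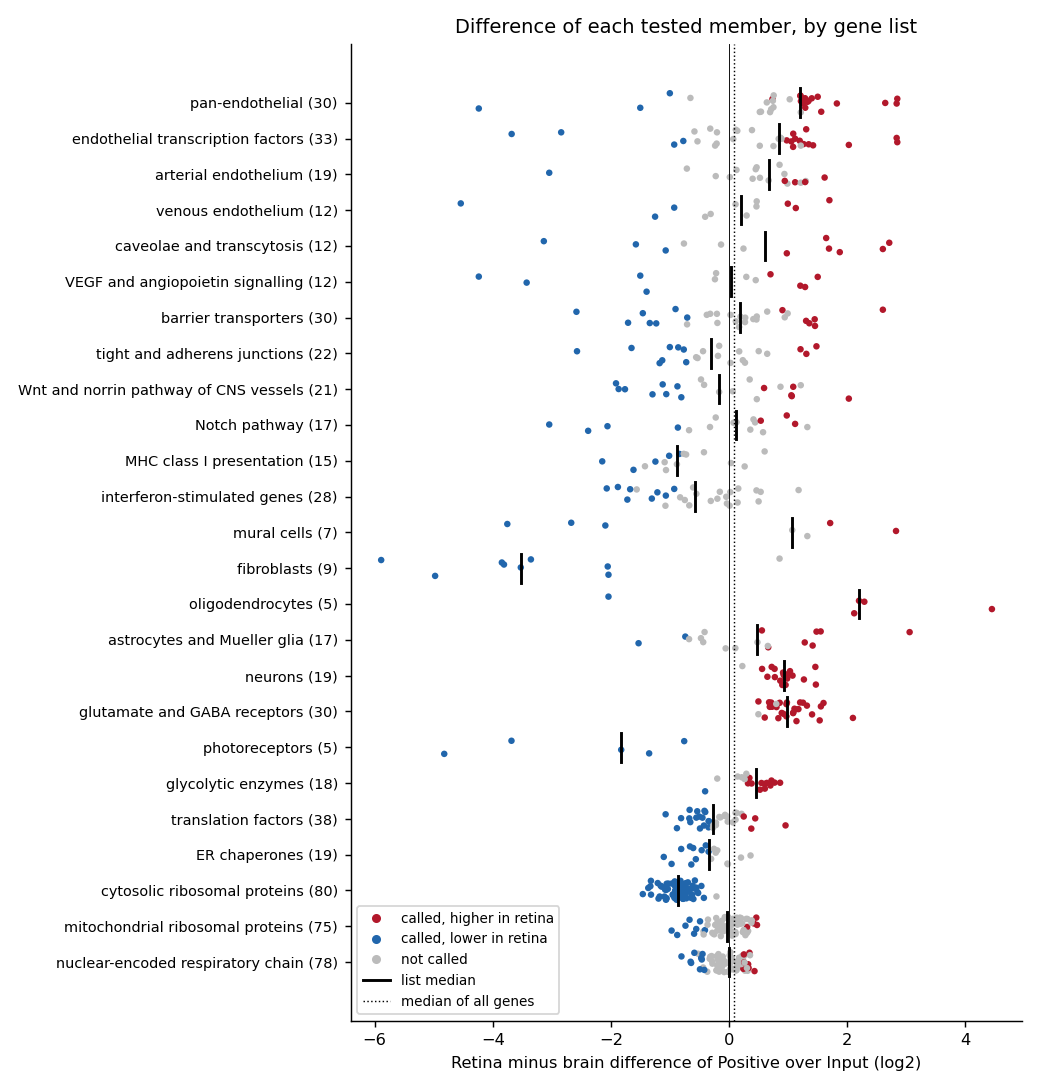
Retina minus brain difference (log2, horizontal axis) of every tested member of 25 gene lists, number of members in brackets, with list medians as black bars and the median of all genes as a dotted line. Pan-endothelial genes (median 1.21), neurons (0.93) and receptors (0.98) lie to the right, fibroblast (-3.53) and ribosomal protein genes (-0.87) to the left.

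Among called genes whose average level reached the median of all genes and whose homogenates did not overlap, the most negative differences included many genes of fibroblasts and of the meninges, the connective tissue sheets around the brain. Slc6a13, a GABA and taurine carrier of meningeal fibroblasts (Entrez 14412, chromosome 6, 121300296 to 121337718, plus strand), had 1.31, 1.07 and 1.88 CPM in Retina Positive and 5.05, 2.59 and 3.40 CPM in Retina Input. Brain held 415, 529 and 397 CPM in Positive and 20.8, 18 and 18.2 CPM in Input. The fractions moved in opposite directions without overlap, and the difference was -5.89 ± 0.33, 59.3-fold (adjusted p = 1.553e-07). Fmod, the collagen-binding proteoglycan fibromodulin, had 2.72, 1.6 and 3.93 CPM in Retina Positive and 4.61, 3.78 and 3.49 CPM in Retina Input, against 598, 889 and 701 CPM in Brain Positive and 30.2, 32.1 and 32.9 CPM in Brain Input (-4.98 ± 0.30, adjusted p = 2.974e-07). The collagen gene Col1a2 was at 3.99, 3.03 and 4.40 CPM in Retina Positive and 636, 1028 and 809 CPM in Brain Positive (-3.85 ± 0.29, adjusted p = 1.541e-06). None of Slc6a13, Fmod and Col1a2 reached 50 counts in every Retina Positive library, so these were listed for retina through Retina Input alone. Such listing favours a difference of this sign.

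Of the 17 genes of the fibroblast list 9 were tested and 8 were listed for brain alone. Of the 9, 8 were lower in the difference and Mgp did not pass. That was 88.9% called, while among all genes 48.8% were called and 20% were lower. Mgp was higher with the replicate block (0.80, adjusted p = 0.0216), by DESeq2 and without any of Retina Positive replicates 1 and 3 and Retina Input replicate 3. The median of the 9 was -3.53, from medians of -0.39 in retina and 3.75 in brain. The summed share of the fibroblast list was 0.0236% to 0.0322% of listed counts in Retina Positive and 0.0126% to 0.016% in Retina Input, against 0.592% to 0.783% in Brain Positive and 0.0475% to 0.052% in Brain Input. The share takes in list members listed in 1 tissue alone, so the tissues differ in how many genes it sums. Its part in the differences of other genes was not tested. Among the 12 most negative well-expressed genes, Fbln1, Efemp1, Pcolce and Aebp1, all genes of extracellular matrix proteins or their processing, had values of -4.32, -4.15, -4.68 and -4.11. Serping1, the C1 inhibitor of complement, had -4.80 and the stress-response gene Nupr1 -4.25. Each of these 6 was enriched in brain (log2 4.00 to 4.27) and not called in retina. Of the 17 genes of the mural cell list 7 were tested and 8 were listed for brain alone. Of the 7, 2 were higher, 3 lower and 2 not called, 71.4% called against 48.8% of all genes. Their median of 1.07 was -0.572 over the 4 with at least 50 in all 12 libraries. Mcam (2.83 ± 0.30), an adhesion molecule, was higher, and the pericyte receptor gene Pdgfrb (-2.09 ± 0.30) and Vtn (-3.75 ± 0.22), vitronectin, were lower. The higher count was 1 when any of Retina Positive replicate 1, Retina Input replicate 2 or Brain Input replicate 3 was left out and 4 without Retina Positive replicate 2.

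Prom1 and Egflam made up another kind of negative difference. Prom1, prominin, which photoreceptors use to build outer segment discs, had 749, 829 and 771 CPM in Retina Positive and 734, 850.1 and 796 CPM in Retina Input, a ratio not called (-0.02 ± 0.09). In brain it had 273, 326 and 339.8 CPM in Positive and 16, 18 and 18.1 CPM in Input, and the difference was -4.19 ± 0.14 (adjusted p = 7.018e-09). Egflam, the synaptic matrix protein pikachurin, had 332, 309.6 and 233 CPM in Retina Positive and 337, 393 and 334 CPM in Retina Input. Its values in brain were 69.9, 83.0 and 81.2 CPM in Positive and 5.08, 5.76 and 5.89 CPM in Input (-4.08 ± 0.19). Retina held more of both genes than brain in each fraction, and by far the lowest values were in Brain Input.

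In the same selection of genes, the largest positive difference was in Mal, a proteolipid of myelin and of membrane sorting (Entrez 17153, chromosome 2, 127633226 to 127656695, minus strand). It had 200.3, 294 and 569 CPM in Retina Positive and 18.5, 2.80 and 11.6 CPM in Retina Input, with widely spread Input libraries. Brain had 428, 348 and 444 CPM in Positive and 289, 280.2 and 269 CPM in Input, a ratio not called. The Positive fractions overlapped, and the difference was 4.46 ± 0.67, 21.9-fold (adjusted p = 0.0001952). Afap1l2, an adaptor of Src-family kinases, had 61.0, 55.1 and 104 CPM in Retina Positive and 1.24, 1.11 and 1.48 CPM in Retina Input, against 111, 108 and 94.8 CPM in Brain Positive and 34.2, 32.0 and 41.6 CPM in Brain Input. Its difference was 4.32 ± 0.33 (adjusted p = 1.554e-06), and Retina Input alone stood far from the other groups. Afap1l2 was under the authors' minimum of 50 counts in Retina Input, so it was listed for retina through Retina Positive alone.

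Several of the next genes shared this form. Atp2a3, a calcium pump of the endoplasmic reticulum, had 59.2, 44.2 and 93.3 CPM in Retina Positive, 3.73, 2.48 and 3.30 CPM in Retina Input, 105, 89.5 and 85.2 CPM in Brain Positive and 75.9, 72.2 and 82.7 CPM in Brain Input (4.09 ± 0.33, adjusted p = 2.228e-06). Car4, a membrane-bound carbonic anhydrase of capillaries, had 45.4, 35.3 and 72.4 CPM in Retina Positive and 0.663, 0.899 and 1.18 CPM in Retina Input. Brain held 416, 337 and 375 CPM in Positive and 72.1, 61.1 and 63.7 CPM in Input, so that Car4 was lower in retina in both fractions while its difference was 3.35 ± 0.36. Car4 too was under 50 counts in Retina Input and was listed for retina through Retina Positive alone. Gja1, the gap junction protein connexin 43 of astrocytes and vessels, had the same order (3.06 ± 0.37), with 26.5, 26.9 and 53.0 CPM in Retina Positive and 259, 324 and 279 CPM in Brain Positive. The remaining genes of this rank were Fam107a (3.84), Gatm (3.77), a creatine synthesis enzyme, Pllp (3.71), a myelin proteolipid, Islr2 (3.61) and the receptor gene Tnfrsf19 (3.52). Of these, Islr2 was the one with higher Retina Positive than Brain Positive, at 131, 165 and 349 against 37.9, 48.8 and 49.3 CPM.

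In 350 genes the 2 pull-downs moved in opposite directions. Enc1, an actin-binding protein of neurons, had 64.3, 62.6 and 144 CPM in Retina Positive and 13.6, 12.9 and 12.2 CPM in Retina Input, against 212, 269 and 265 CPM in Brain Positive and 408, 576 and 499 CPM in Brain Input. It rose by 2.81 in retina and fell by 0.99 in brain on the log2 scale (difference 3.80 ± 0.38, adjusted p = 1.165e-05). The tetraspanin gene Tspan2 did the same at lower levels (2.91 ± 0.19), as did the Rac activator gene Prex1 (2.34 ± 0.27), Wscd2 (2.19 ± 0.15), Tmem215 (2.16 ± 0.20) and the synaptic scaffold gene Shank2 (2.16 ± 0.25). Tmem215 had 121, 115 and 80.3 CPM in Retina Positive and 76.7, 66.4 and 65.8 CPM in Retina Input, against 3.18, 3.10 and 3.43 CPM in Brain Positive and 9.27, 10.1 and 9.39 CPM in Brain Input.

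Genes that fell in retina and rose in brain included Spp1, the secreted matrix protein osteopontin, and Ptgds, a prostaglandin D2 synthase abundant in meninges. Spp1 had 5.86, 5.97 and 5.72 CPM in Retina Positive and 17.3, 22.8 and 21 CPM in Retina Input, against 255, 430.2 and 325 CPM in Brain Positive and 54.2, 46.3 and 60.2 CPM in Brain Input (-4.45 ± 0.26, adjusted p = 2.638e-07). Ptgds had 34.2, 29.6 and 38.3 CPM in Retina Positive and 79.5, 41.2 and 53.9 CPM in Retina Input. In brain Ptgds reached 11428, 12112 and 11150.0 CPM in Positive, against 1361, 1128 and 1083 CPM in Input (-4.05 ± 0.28). Jag1, a Notch ligand of arterial endothelium and also of retinal glia, had 97.2, 94.4 and 105 CPM in Retina Positive and 122, 136 and 128 CPM in Retina Input, against 34.2, 38.1 and 34.9 CPM in Brain Positive and 4.54, 6.65 and 5.61 CPM in Brain Input. No pair of its 4 groups overlapped, and its difference was -3.04 ± 0.16 (adjusted p = 9.604e-08). The galectin gene Lgals1 (-3.40 ± 0.21) and the heparan sulphate sulphotransferase gene Hs3st3b1 (-3.03 ± 0.26) completed the 6 of this direction. In the Notch list as a whole 3 of 17 genes were higher and 4 lower, 41.2% called against 48.8% of all genes, and Notch2 was among the lower (-2.38 ± 0.26).

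Neuronal transcripts were depleted more from Brain Positive than from Retina Positive. Positive was below Input for 13 of 19 neuronal genes in retina and for 19 of 19 in brain. Of the 19, 18 had a higher difference and Gad1 did not pass, with medians of -0.35 in retina and -1.22 in brain and a median difference of 0.93. Of 30 glutamate and GABA receptor genes 28 were higher and 0 lower (median 0.98). The called shares of the 2 lists were 94.7% and 93.3%, while among all genes 48.8% were called and 28.9% were higher. Fitted together with choroid (18 libraries, 7270 genes listed in every table), the test called 3 genes of each list higher, with fewer members tested. Snap25, a synaptic fusion protein, had 1763, 2056 and 1493 CPM in Retina Positive and 1724, 1855 and 1878 CPM in Retina Input, which overlap. In brain it had 1466, 1209 and 1285 CPM in Positive and 2843, 2807 and 2688 CPM in Input, which do not, and the difference was 1.04 ± 0.15 (adjusted p = 0.000177, but 0.189 in the fit of 18 libraries). Nrgn, neurogranin, a postsynaptic calmodulin-binding protein, followed at 1.47 ± 0.19 and the metabotropic receptor gene Grm5 at 2.10 ± 0.19. The summed share of the neuronal list was 0.718% to 0.921% in Retina Positive and 0.991% to 1.04% in Retina Input, against 0.619% to 0.687% in Brain Positive and 1.58% to 1.62% in Brain Input.

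**Figure D4:**
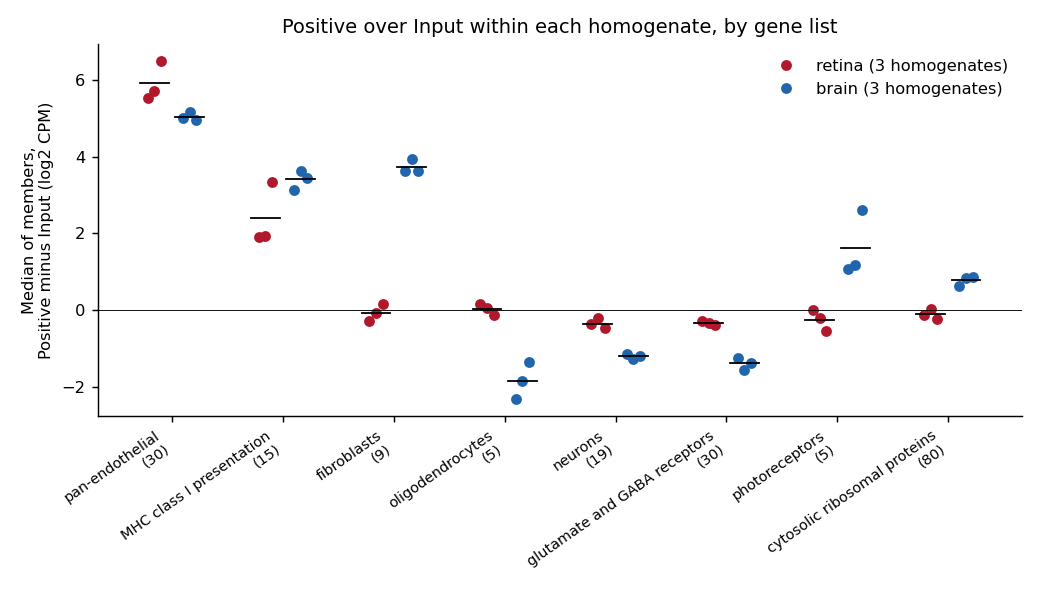
Median log2 Positive minus Input of the tested members of 8 lists (vertical axis) in each of 3 retina and 3 brain homogenates, with bars at the mean of 3. Fibroblast genes lie at -0.281 to 0.157 in retina and 3.63 to 3.95 in brain, and neuronal genes at -0.479 to -0.215 in retina and -1.27 to -1.15 in brain.

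Glia followed in part. Of 5 oligodendrocyte genes 4 were higher, and Pdgfra, which fibroblasts also express, was lower. The share of the oligodendrocyte list was 0.251% in Brain Positive replicate 3 and 0.161% and 0.166% in the other Brain Positive libraries. Of 17 astrocyte and Mueller glia genes 7 were higher, such as the water channel gene Aqp4 (1.55 ± 0.27), and 2 lower, which became 5 without Retina Positive replicate 3. Of that list 52.9% were called, against 48.8% of all genes. The 8 microglial genes gave 0 calls by edgeR at an adjusted p of 0.05, with C1qa at an adjusted p of 0.06784. DESeq2 called 1 of them lower, and 4 were lower without Brain Positive replicate 1. Erythroid globin genes were higher in 3 of 3 (median 2.49), 1 of 3 without Retina Positive replicate 1. The share of the erythroid list ranged from 0.0275% to 0.101% in Brain Input, and counts of globin genes that are almost identical are uncertain.

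Photoreceptor genes tested in both tissues were lower in 5 of 5, while 20% of all genes were lower. Gngt2, the transducin gamma subunit of cones, differed in both tissues, with 26.4, 18.6 and 22.3 CPM in Retina Positive and 62.5, 74.5 and 83.1 CPM in Retina Input, against 17.3, 16.9 and 17.7 CPM in Brain Positive and 2.59, 1.70 and 1.78 CPM in Brain Input (-4.82 ± 0.24, adjusted p = 6.957e-08). Vsx1, a transcription factor of cone bipolar cells, had 31.4, 40.2 and 29.1 CPM in Retina Positive and 34.7, 37.6 and 42.2 CPM in Retina Input. Brain Positive held 6.32, 8.10 and 6.76 CPM of it and Brain Input at most 0.359 CPM (-5.00 ± 0.31, adjusted p = 3.563e-07). Vsx1 was under the authors' minimum of 50 counts in Brain Input. It was listed for brain through Brain Positive alone, which favours a difference of this sign. Most photoreceptor genes have no difference here, because 20 members of the list were listed in 1 tissue only.

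Cytosolic ribosomal protein genes were lower almost throughout. Of 80 cytosolic ribosomal protein genes 79 were lower and 0 higher, 98.8% called against 48.8% of all genes, of which 20% were lower. Rpl22l1 did not pass. The median difference was -0.87, from medians of -0.11 in retina and 0.79 in brain, and it lay between -1.03 and -0.69 under every alternative run. Rpl10a had the most negative value of the 80, next to Rps20 (-1.37 ± 0.15). The list took 1.29% to 1.34% of listed counts in Retina Positive and 1.38% to 1.6% in Retina Input, against 2.43% to 2.61% in Brain Positive and 1.47% to 1.77% in Brain Input. Translation factor genes were less uniform, with 55.3% called against 48.8% of all genes. Of 38, 17 were not called and 17 were lower, such as Eef1a1 (-0.67 ± 0.13) and Tpt1 (-1.07 ± 0.14), and 4 were higher, among them Eef1a2 (0.96 ± 0.12), the form of the elongation factor found in neurons and muscle, which did not pass in the fit of 18 libraries (adjusted p = 0.121).

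Secretory chaperones also leaned towards brain, with 10 of 19 genes of the endoplasmic reticulum lower and 0 higher (median -0.35). That was 52.6% called, while among all genes 48.8% were called and 20% were lower. P4hb, a protein disulfide isomerase, had a difference of -1.10 ± 0.11 (adjusted p = 1.284e-05). Without Retina Positive replicate 3 there were 2 of the 19 higher. Glycolytic enzyme genes leaned towards retina, with 12 of 18 higher and 1 lower (median 0.46), and 5 higher in the fit of 18 libraries, among them the muscle-type phosphofructokinase gene Pfkm (0.87 ± 0.08, adjusted p = 9.464e-06). Of 12 nuclear and long non-coding RNAs 7 were higher, such as Neat1 (1.04 ± 0.23), and 2 lower, such as Snhg1 (-1.37 ± 0.26), with 1 higher and 1 lower in the fit of 18 libraries. Immediate early genes split, with 9 of 22 higher, such as Fos (1.30 ± 0.30), and 7 lower, such as Ier3 (-2.65 ± 0.13) and Atf3 (-2.82 ± 0.63). Atf3 varied widely in Brain Positive, at 35.7, 12.1 and 9.80 CPM. The higher count was 5 without Brain Input replicate 2 and 1 in the fit of 18 libraries. The called shares of the glycolytic, non-coding and immediate early lists were 72.2%, 75% and 72.7%. Among all genes 48.8% were called, with 28.9% higher and 20% lower.

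Proteasome subunits gave 1 higher and 1 lower of 37, mitochondrial ribosomal proteins 4 and 8 of 75, and nuclear-encoded respiratory chain subunits 7 and 9 of 78. The called shares were 5.41%, 16% and 20.5%, against 48.8% of all genes. The list medians of 0.00705, -0.0295 and -0.000976 changed sign among the alternatives. The counts turned on single libraries, and without Retina Positive replicate 3 they were 6 higher and 2 lower, 15 and 7, and 21 and 4. With the replicate block the proteasome list had 2 lower.

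Transcript length moved with the difference. In the GENCODE vM21 annotation, the median longest transcript was 4087 bases for genes with a higher difference, 3083 for those with a lower one and 3476 for those not called. With genes in 5 equal bins from the shortest to the longest, the median difference was -0.09, 0.03, 0.12, 0.16 and 0.24. In brain the median Positive over Input ratio was 0.23 in the shortest bin and -0.32 in the longest, and in retina it was 0.06 and -0.12. Its part in the differences of single genes was not tested.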

How the data were processed

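Polysome pull-down (Positive) and Input RNA of retina and brain were sequenced by the submitters from a strand-marking library kit, per the labels. Build mm10 and the tool DESeq come from the submitters' processing notes; for aligner and counter nothing is stated in those sources. The deposited values are estimated counts (expected counts) per gene, filtered by the authors per tissue to genes reaching 50 in every sample of 1 or both fractions, per the file headers. Genes listed for a tissue through 1 fraction alone were high in that fraction, which favours a Positive over Input ratio of the matching sign. The deposited log2 columns and factors of the authors served for one alternative only.

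Here counts were rounded and fitted in edgeR 4.0.16 (R 4.3.3, limma 3.58.1) with TMM scaling, filterByExpr (minimum count 10, which removed 0 genes), 4 groups of 3 libraries and the quasi-likelihood test, with Benjamini-Hochberg adjustment over all 12438 genes at 0.05 and 8 residual degrees of freedom. DESeq2 1.42.0 was an alternative. Tables and figures used Python 3.11.15, pandas 2.3.3 and matplotlib 3.10.9. The procedure was tested on simulated data. Positive and Input of one number come from the same homogenate, per the labels' protocols, and so are paired; correlations of their deviations were 0.0384, 0.264 and -0.00988 in retina and 0.217, 0.152 and 0.233 in brain. Values with this replicate block are given where they change the call of a named gene or move the count of a described list by over 1.5 times. Named genes were Cdh5 and Rpl10a, the 12 largest differences each way among called genes at or above the median level whose homogenates did not overlap, the 6 largest each way of opposite direction, and members of 43 gene lists, of which further ones were picked after their values were seen. Members and lists were chosen with earlier results of these data known. Counting precision follows the library totals given in the report. Values of a few genes are not reported here.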

Additional observations from a re-analysis of the deposited data

Results flagged for a closer look

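The test of the difference itself, an interaction of tissue and fraction in edgeR, separated retina from brain in 6072 genes. In 350 of them Positive was called above Input in one tissue and below it in the other. Among those the largest positive log2 differences were in Enc1 (3.80), Tspan2 (2.91), Prex1 (2.34), Wscd2 (2.19), Tmem215 (2.16) and Shank2 (2.16). The largest negative ones were in Slc6a13 (-5.89), Spp1 (-4.45), Ptgds (-4.05), Lgals1 (-3.40), Jag1 (-3.04) and Hs3st3b1 (-3.03). Each of these 12 genes kept its direction under every alternative run.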

How the results depend on the processing

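None of the 6072 called genes changed sign under any alternative run that tested it. The counts stayed near 6072 with DESeq2 size factors (6086), no scaling (6049), the authors' factors (5923, 2953 higher and 2970 lower), the replicate block (6090, with 5768 of the 6072 kept) and DESeq2's own test (6397). Over genes at or above the median level 3478 were called (2135 higher, 1343 lower), with 6219 genes tested. A fit of all 18 libraries tested 7270 genes and called 2170 (802 higher, 1368 lower), keeping 2137 of 3626 calls; the cause was not tested. At least 2-fold, 2068 were called (1202 higher, 866 lower). Leaving out single libraries gave 5281 to 6907 calls, 2830 to 4467 higher and 1787 to 2801 lower. Positive over Input within retina passed in 4373 genes, 2679 at or above the median level, 2223 with 18 libraries, 2819 at an adjusted p of 0.01, 1156 at 2-fold, and 3365 to 4555 without single libraries. Within brain the count of 9174 became 4869, 4463 with 18 libraries, 3615 at 2-fold, and 8569 to 9591 without single libraries. Genes near 1 CPM in an Input have differences that rest on few counts.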
